A study of Mus musculus with 19 samples.

Results

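Kupffer cells (KCs) that had grown from monocytes were compared with KCs of embryonic origin from the same mouse colony, on 11 of the 19 arrays of the series. The 3 monocyte-derived KC (mo-KC) arrays came from KC-DTR mice 15 days after diphtheria toxin (DT, 50 ng). The 8 embryonic KC (em-KC) arrays came from KC-DTR mice without DT (3 arrays), from a wild-type (WT) littermate without DT (1 array), and from WT littermates 15 days (2 arrays) or 30 days (2 arrays) after DT. Arrays were assigned by their sample labels, not by measured values, and the 3 em-KC arrays of other WT mice and the 5 arrays of day 30 mo-KCs were left out.

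KC-DTR mice carry a cassette with YFP and the human DT receptor downstream of the stop codon of Clec4f, the gene of a KC lectin, so that DT kills cells that express Clec4f. The mice were 6 to 12 weeks old when the livers were taken. Live CD45+ cells were sorted that stained for F4/80 and Clec4F, had intermediate CD11b and lacked Ly6C, Ly6G and SiglecF, so Clec4F protein was part of the selection. In the mo-KC group the cells' origin, the earlier depletion and the joint presence of transgene and DT go together and cannot be told apart. Untreated KC-DTR mice share the transgene, treated WT littermates share the toxin, and no em-KC array has both. Replicates are biological per the labels, which do not say which mouse or mice gave each array, so p-values measure the spread between these arrays.

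KCs are the macrophages (mφs) of the liver sinusoids, where they take up particles, dying cells and haemoglobin from the blood and produce complement proteins. In the adult, most descend from precursors seeded before birth and maintain themselves by division. When KCs are removed, circulating monocytes, which depend on the chemokine receptor Ccr2 to leave the bone marrow, can enter the liver and take on the features of KCs.

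The labelled cell type was checked against 11 KC markers. The mean log2 value of the list was 11.53 to 11.63 on the mo-KC arrays and 11.94 to 12.05 on the em-KC arrays, and without Timd4, left out after its value was seen, 11.89 to 11.95 and 11.96 to 12.05. Timd4 was the only marker called, and 10 of the 11 had a 95% confidence interval of the difference within 1.5-fold. Clec4f, part of the sort gate and the site of the cassette, was 12.18, 12.21 and 12.16 in mo-KCs and 12.17 to 12.67 (median 12.59) in em-KCs. Its difference of -0.32 (limma adjusted p = 0.257) was not called, and its values split by genotype, with 12.16 to 12.39 on the 6 KC-DTR arrays and 12.57 to 12.67 on the 5 WT littermate arrays. In a limma fit of 5 conditions Clec4f differed from untreated KC-DTR mice by -0.12 (limma adjusted p = 0.819). In sorted bulk RNA, fewer cells of a type and less RNA per cell cannot be told apart.

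Expression is given as the deposited log2 value, on which a step of 1 is a doubling of signal, and a difference is mo-KC minus em-KC. Of 19938 genes, 204 (1.02%) differed at an adjusted p under 0.05 (limma, Benjamini-Hochberg over all genes), and these are the genes written of as called. Of these, 78 (0.391%) were higher and 126 (0.632%) lower in mo-KCs. At 2-fold or more there were 16 higher and 33 lower genes, at 4-fold or more 3 and 10, and at 8-fold or more 0 and 5. For 203 of the 204 genes no mo-KC array overlapped the em-KC arrays, against 3.01% of all genes. The genes were called on these same arrays, so this describes the calls and is no separate support for them. Without mo-KC replicate 1 the count was 117, and without mo-KC replicate 3 it was 123. Called members of gene lists are counted below, and these lists were chosen with earlier results of these data known. A share of called members above 1.02% is therefore no evidence of enrichment in any list.

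Most genes lay close together in both groups. The 95% confidence interval of the difference was within 1.5-fold for 93.7% of genes. This share includes genes with low values, since no filter was applied. A mean of at least 5 in either group was reached by 14343 genes, and of at least 6 by 10310. How many genes lie at background is unknown, so the share does not measure how alike the expressed genes were. The median difference over all genes was -0.0040.

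On the first principal component of the 15% most variable genes (2991 genes, 29.1% of the variance), the mo-KC arrays scored 16.2, 14.4 and 16.7, and the em-KC arrays -8.10 to -4.29. The groups did not overlap, and the difference of the means had the smallest p that the 165 splits of the arrays can give (exact permutation test, two-sided, p = 0.00606, adjusted over 3 components p = 0.0182). On components 2 and 3 the groups overlapped (exact permutation p = 0.867 and 0.909).

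**Figure D1:**
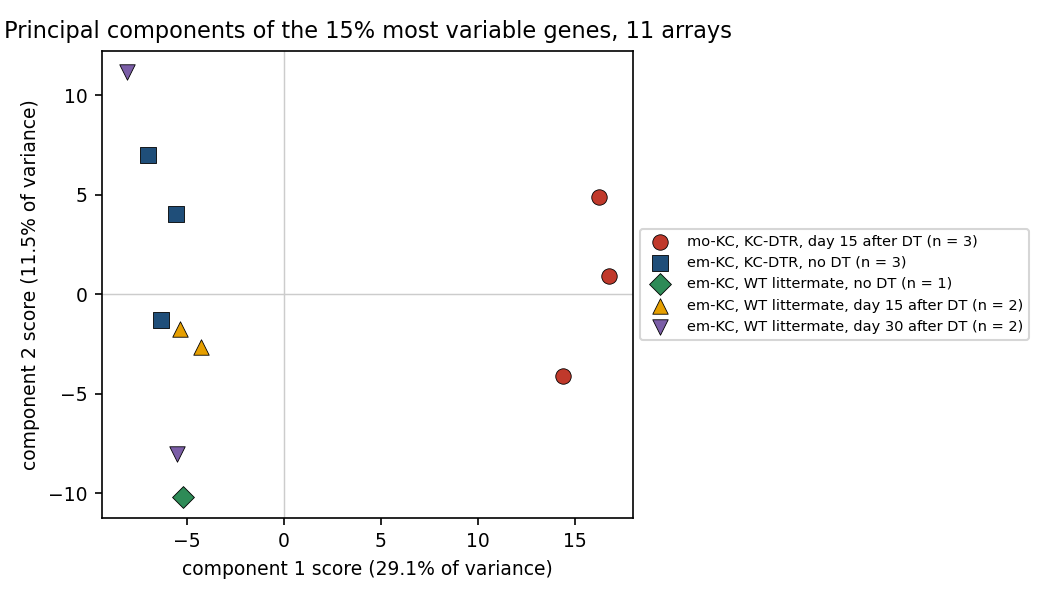
Scores of the 11 arrays on the first (x) and second (y) principal components of the 15% most variable genes, 1 point per array, with colour and shape for the condition. The 3 mo-KC arrays lie between 14.4 and 16.7 on the first component and the 8 em-KC arrays between -8.10 and -4.29.

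Timd4 encodes a receptor for phosphatidylserine, the lipid that dying cells expose, and was 7.88, 8.24 and 8.36 in mo-KCs and 11.70 to 12.02 (median 11.94) in em-KCs. No array came near the other group, and the difference was -3.75 (standard error 0.10, 13.4-fold lower, limma adjusted p = 3.04e-11), the lowest p of all genes. Among 28 measured genes of apoptotic cell recognition Timd4 was the only one called, the list's median difference was -0.0042, and 24 members had an interval within 1.5-fold. Mertk and Axl, receptor kinases that bind dying cells through bridging proteins, differed by -0.12 (limma adjusted p = 0.71) and -0.14 (limma adjusted p = 0.626).

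Of 22 measured scavenger receptors, 3 were called, all lower, against 0.632% of all genes called lower. Cd163, the receptor for haemoglobin bound to haptoglobin, was 9.59, 9.32 and 9.19 in mo-KCs and 10.72 to 11.73 (median 11.55) in em-KCs. The difference was -2.02 (standard error 0.18, 4.06-fold lower, limma adjusted p = 1.63e-05). Colec12, a membrane collectin, was 5.45, 5.31 and 5.60 in mo-KCs against 7.47 to 8.34 (median 7.60) in em-KCs, a difference of -2.30 (standard error 0.18, 4.93-fold lower, limma adjusted p = 5.95e-06). For both genes the groups stood more than 1 log2 unit apart. Marco, a collagen-like receptor for bacteria and particles, had a narrower gap, with 8.30, 8.76 and 9.37 in mo-KCs against 9.88 to 10.68 (median 10.15) in em-KCs and a difference of -1.45 (limma adjusted p = 0.00301). Against untreated KC-DTR mice Marco differed by -1.34, which was called in the limma fit of 5 conditions (adjusted p = 0.0417) and not in a limma fit of those 3 arrays against 3 alone (adjusted p = 0.121). The list's median difference was -0.06, and Cd5l, a secreted protein of tissue mφs, differed by -0.06 (limma adjusted p = 0.909). Of 36 measured genes of iron and heme handling, which include Cd163, no other gene was called.

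**Figure D2:**
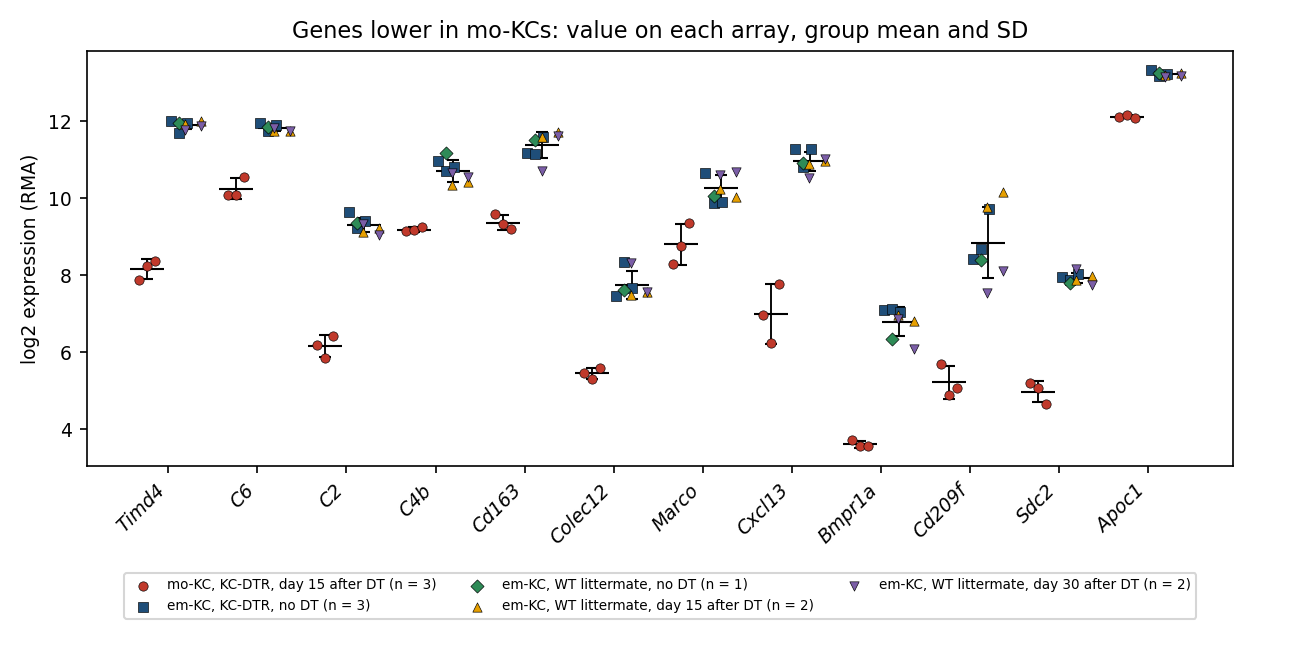
Log2 expression (y) of 12 genes lower in mo-KCs (x), with 1 point per array, a horizontal bar at each group mean and error bars of 1 SD (n = 3 mo-KC and 8 em-KC arrays). For each gene all 3 mo-KC points lie below all 8 em-KC points, and for Timd4 the gap runs from 8.36 to 11.70.

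Complement genes fell in mo-KCs at several steps of the cascade. C2, the precursor of a protease that joins C4 to form the enzyme cutting C3, was 6.18, 5.85 and 6.43 in mo-KCs and 9.06 to 9.64 (median 9.28) in em-KCs. The groups stood far apart, with a difference of -3.14 (standard error 0.13, 8.84-fold lower, limma adjusted p = 3.08e-09). C4b, which supplies the partner of C2, was 9.14, 9.17 and 9.25 in mo-KCs against 10.34 to 11.19 (median 10.68) in em-KCs, a difference of -1.52 (limma adjusted p = 4.61e-05). C4a, a near-identical copy of C4b whose probes may be shared, differed by -0.80 (limma adjusted p = 0.00226). C6, a part of the membrane attack complex, was 10.10, 10.10 and 10.57 in mo-KCs against 11.75 to 11.95 (median 11.79) in em-KCs, a difference of -1.56 (standard error 0.10, 2.96-fold lower, limma adjusted p = 2.76e-07). Cd55, an inhibitor that breaks up the C3-cutting enzymes, was also lower, with -0.65 (limma adjusted p = 0.0182).

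Cfb, the counterpart of C2 in the alternative pathway, moved the other way. It was 11.41, 11.45 and 11.55 in mo-KCs and 10.35 to 11.03 (median 10.77) in em-KCs, a difference of 0.71 (limma adjusted p = 0.00779). The call was lost without mo-KC replicate 3, at 0.67 (limma adjusted p = 0.0655). Cfb and C2 follow each other on chromosome 17 in the RefSeq order of measured genes. Of the 11 pairs of neighbouring genes that were both called, theirs was the only one with opposite signs. In all, 1 of 29 measured complement genes was higher and 5 were lower, with a list median of -0.14, against 1.02% of all genes called. C1qa and C1qc, chains of the molecule that starts the classical pathway, differed by -0.07 and -0.04, and the complement receptor Vsig4 by -0.13 (limma adjusted p = 0.595), and these were not called.

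Of 38 measured genes of KC identity, 1 was higher and 4 were lower, with a list median of -0.12 and 30 intervals within 1.5-fold. The lower members were Timd4, C6, Marco and Pcolce2, an enhancer of collagen processing. Pcolce2 was 10.54, 10.53 and 10.58 in mo-KCs against 11.24 to 11.62 (median 11.54) in em-KCs, a difference of -0.94 (limma adjusted p = 1.55e-05). The higher member was Cd207, which encodes the lectin langerin and is the measured neighbour of Clec4f on chromosome 6. Cd207 was 11.45, 11.63 and 11.81 in mo-KCs against 10.06 to 11.02 (median 10.66) in em-KCs, a difference of 1.09 (limma adjusted p = 0.00507). Without mo-KC replicate 3 it was 1.00 (limma adjusted p = 0.0527). In a limma fit of 5 conditions Cd207 was not called against untreated KC-DTR mice, which share the transgene (0.83, adjusted p = 0.0933). Their 3 arrays had 10.62, 11.02 and 10.77. Against WT littermates 15 days after DT it was called (1.14, adjusted p = 0.0427).

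Among 33 measured C-type lectins, 2 were higher (Cd207 and Clec4b1) and 1 was lower (Cd209f), with a list median of -0.0004. Cd209f, a lectin of the family of DC-SIGN, was 5.70, 4.88 and 5.07 in mo-KCs and 7.54 to 10.16 (median 8.55) in em-KCs, a difference of -3.63 (standard error 0.46, 12.4-fold lower, limma adjusted p = 7.12e-04). The groups did not overlap although the em-KC arrays spread widely. WT littermates had 9.77 and 10.16 at 15 days after DT and 7.54 and 8.11 at 30 days. Probes of the Cd209 family may be shared between its members. Clec4b1 was 9.52, 9.66 and 9.49 in mo-KCs against 7.63 to 9.29 (median 8.45) in em-KCs (difference 1.11, limma adjusted p = 0.0359), and its call was lost on leaving out any of the 3 mo-KC arrays, at 1.06 to 1.15.

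Cxcl13, the chemokine that draws B cells into follicles, had the largest difference of all called genes. It was 6.96, 6.24 and 7.78 in mo-KCs and 10.52 to 11.29 (median 10.95) in em-KCs, which is -3.97 (standard error 0.24, 15.7-fold lower, limma adjusted p = 2.42e-07). The mo-KC arrays spread over more than 1 log2 unit but stayed far below the em-KC arrays. Cxcl13 was the only lower gene among 44 measured chemokines and chemokine receptors, and 7 were higher, with a list median of 0.02. Over all genes 0.632% were called lower and 0.391% higher.

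The higher genes of that list were mostly receptors. Ccr2, which lets monocytes leave the bone marrow, was 8.17, 8.77 and 8.50 in mo-KCs and 5.03 to 5.94 (median 5.46) in em-KCs. The difference of 2.96 (standard error 0.18, 7.79-fold higher, limma adjusted p = 2.76e-07) was the largest among the genes higher in mo-KCs. Cx3cr1, the fractalkine receptor of monocytes and many mφs, was 9.97, 9.84 and 9.24 in mo-KCs against 6.61 to 7.69 (median 7.05) in em-KCs, a difference of 2.59 (standard error 0.23, 6.01-fold higher, limma adjusted p = 1.51e-05). Ccr3, known as the eotaxin receptor of eosinophils, was 10.22, 10.46 and 9.98 in mo-KCs against 6.84 to 8.63 (median 7.67) in em-KCs, a difference of 2.49 (standard error 0.30, 5.63-fold higher, limma adjusted p = 5.26e-04). For all 3 receptors the lowest mo-KC array was above the highest em-KC array by more than 1 log2 unit. Ccr1, a receptor for Ccl3 and Ccl5, was 5.08, 5.29 and 5.12 in mo-KCs against 3.29 to 3.89 (median 3.65) in em-KCs, a difference of 1.58 (limma adjusted p = 2.82e-06). Its em-KC values lay at the low end of the scale, where the background is unknown. Ccrl2, an atypical receptor that binds chemerin, was higher by 0.94 (limma adjusted p = 0.00168). The inflammatory ligands Ccl4, at 0.92 (limma adjusted p = 0.00286), and Ccl3, at 0.68 (limma adjusted p = 0.0147), were the other called members. Ccl3 was not called without mo-KC replicate 2 (0.58) or replicate 3 (0.66).

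Of 11 measured eosinophil and mast cell markers, Ccr3 was the only one called, and the list's median difference was -0.0047. Siglecf, whose protein the sort gated out, was 6.69, 6.80 and 6.57 in mo-KCs and 6.47 to 6.67 in em-KCs (difference 0.08, limma adjusted p = 0.907).

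Ccr1, Ccr1l1, Ccr3 and Ccr2 follow each other on chromosome 9 in the RefSeq order of measured genes, and all 4 were higher in mo-KCs. Ccr1l1, a relative of Ccr1 whose probes may share sequence with it, differed by 0.89 (limma adjusted p = 0.00734). The chemokine receptor genes on the far side of Ccr1 were not called, with 0.23 for Xcr1, -0.24 for Cxcr6 and -0.47 for Ccr9. The 250 bases before the RefSeq start of Ccr1, Ccr3 and Ccr2 are shown because these neighbours moved together, beside those of Timd4, the gene with the lowest p. Coordinates are those of GRCm38.p6 and each sequence reads 5′ to 3′ on the gene's strand. Capitals mark the core bound by PU.1, a factor of monocytes and mφs (GAGGAA, or TTCCTC on the other strand).
Ccr1 (chr9:123968693-123968942, minus strand): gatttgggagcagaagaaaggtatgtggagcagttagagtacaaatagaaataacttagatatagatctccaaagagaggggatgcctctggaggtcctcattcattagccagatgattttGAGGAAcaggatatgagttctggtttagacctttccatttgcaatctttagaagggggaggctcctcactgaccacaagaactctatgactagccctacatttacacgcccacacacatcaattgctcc
Ccr3 (chr9:124021721-124021970, plus strand): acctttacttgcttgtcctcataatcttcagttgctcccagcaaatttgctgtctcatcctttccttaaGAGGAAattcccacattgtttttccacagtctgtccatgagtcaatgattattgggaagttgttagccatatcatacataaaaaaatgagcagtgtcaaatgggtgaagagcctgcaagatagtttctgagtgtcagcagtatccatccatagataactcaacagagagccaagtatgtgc
Ccr2 (chr9:124101933-124102182, plus strand): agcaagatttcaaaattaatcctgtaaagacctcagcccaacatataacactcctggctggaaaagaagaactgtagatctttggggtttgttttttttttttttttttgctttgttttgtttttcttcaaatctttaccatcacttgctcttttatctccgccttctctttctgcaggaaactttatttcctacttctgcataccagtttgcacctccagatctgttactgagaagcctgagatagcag
Timd4 (chr11:46810549-46810798, plus strand): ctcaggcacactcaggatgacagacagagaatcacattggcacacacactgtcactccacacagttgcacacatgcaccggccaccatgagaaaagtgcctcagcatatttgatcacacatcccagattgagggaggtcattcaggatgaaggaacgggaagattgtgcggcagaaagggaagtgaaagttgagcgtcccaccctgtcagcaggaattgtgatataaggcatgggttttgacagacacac
Ccr1 held the core 129 bases and Ccr3 181 bases before the start, and these letters are not in the windows of Ccr2 and Timd4. Promoters were matched for 64 of the 78 higher genes, 95 of the 126 lower genes and 15614 of the 19938 genes tested. The core was in 35.9% of the promoters of higher genes, 18.9% of those of lower genes, 22.5% of those of genes tested and 23.1% of all promoters of the table. A first count had included the 50 bases after the start, where the shares were 35.9%, 29.5%, 27% and 28.3%. The window was shortened after those shares had been seen, and the share of lower genes against genes tested changed sides between the windows. Altogether 10 motifs were counted on both strands, and PU.1 is shown because its share among higher genes stood farthest from that of genes tested. These shares are descriptions chosen with the called genes known and carry no test. Spi1, the gene of PU.1, was 10.99, 11.25 and 11.21 in mo-KCs and 10.89 to 11.41 in em-KCs, and the groups overlapped.

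**Figure D3:**
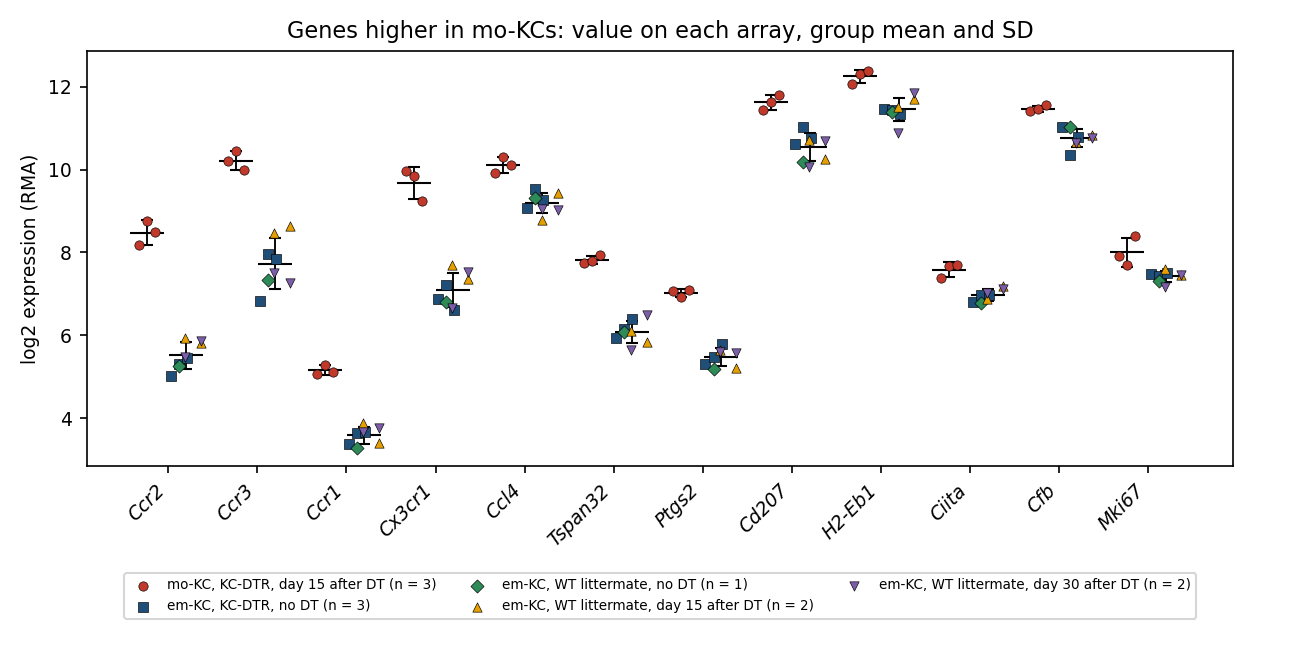
Log2 expression (y) of 12 genes higher in mo-KCs (x), with 1 point per array, a horizontal bar at each group mean and error bars of 1 SD (n = 3 mo-KC and 8 em-KC arrays). For each gene all 3 mo-KC points lie above all 8 em-KC points, with a wide gap for Ccr2 and Cx3cr1 and a narrow one for Mki67.

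Of 42 measured monocyte genes, 4 were called, all higher, against 0.391% of all genes called higher. The list's median difference was 0.02. Besides Ccr2 and Cx3cr1 these were Ms4a4c and Ms4a6c, genes of membrane-spanning proteins. Ms4a4c was 9.33, 8.97 and 9.39 in mo-KCs against 8.06 to 8.76 in em-KCs (difference 0.78, limma adjusted p = 0.0147). Ms4a6c was 10.87, 10.94 and 11.12 against 10.49 to 10.79 (difference 0.37, limma adjusted p = 0.0404). Ms4a4c was not called without mo-KC replicate 1 (0.73) or replicate 3 (0.70), nor Ms4a6c on leaving out any mo-KC array (0.30 to 0.42). Other genes known from monocytes were not called, among them S100a4 (-0.61), Plac8 (0.61), Vcan (0.10), F13a1 (-0.15) and Fn1 (0.01). Lyz2, the lysozyme gene of myeloid cells, was 12.99, 13.18 and 13.13 in mo-KCs and 12.97 to 13.16 in em-KCs, so the groups lay side by side (difference 0.03).

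Of 17 measured genes of antigen presentation by MHC class II, 3 were called higher, against 0.391% of all genes. The list median was 0.17. H2-Eb1, a class II chain, was 12.08, 12.31 and 12.38 in mo-KCs and 10.90 to 11.85 (median 11.46) in em-KCs, a difference of 0.80 (limma adjusted p = 0.0145). Ciita, the master activator of class II transcription, was 7.38, 7.68 and 7.70 in mo-KCs against 6.78 to 7.18 (median 6.98) in em-KCs, a difference of 0.62 (limma adjusted p = 0.00555). H2-DMa, which helps load peptides, differed by 0.37 (limma adjusted p = 0.0315). All 3 calls were lost without mo-KC replicate 3, at 0.74 for H2-Eb1, 0.56 for Ciita and 0.33 for H2-DMa. H2-Eb1 was also not called without replicate 2 (0.78), nor H2-DMa on leaving out any mo-KC array (0.33 to 0.42). The chains H2-Ab1 (0.45) and H2-Aa (0.35) and the invariant chain Cd74 (0.40) were not called.

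In signalling by bone morphogenetic proteins (BMPs) and TGF-beta, 1 of 41 measured genes was higher and 1 was lower, with a list median of -0.01. Bmpr1a, a type I BMP receptor, was 3.71, 3.56 and 3.55 in mo-KCs and 6.09 to 7.13 (median 6.91) in em-KCs, a difference of -3.19 (limma adjusted p = 2.42e-07). The mo-KC values lay near the low end of the scale, where the background is unknown, so no fold is given. Gdf3, a ligand of the same superfamily, was higher, with 5.99, 7.13 and 7.29 in mo-KCs against 5.32 to 5.92 (median 5.52) in em-KCs (2.37-fold higher, limma adjusted p = 0.00818). Gdf3 was not called without mo-KC replicate 2 (1.08) or replicate 3 (1.00). Id3, a known target of BMP signals, differed by 0.16 (limma adjusted p = 0.626).

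Among 39 measured adhesion genes, 2 were higher and 1 was lower. Sdc2, a proteoglycan that carries heparan sulfate, was 5.19, 5.06 and 4.66 in mo-KCs and 7.76 to 8.17 (median 7.92) in em-KCs, a difference of -2.96 (standard error 0.11, 7.8-fold lower, limma adjusted p = 1.23e-09). Tspan32, a tetraspanin of blood cells, was 7.74, 7.80 and 7.93 in mo-KCs against 5.65 to 6.48 (median 6.09) in em-KCs, a difference of 1.75 (standard error 0.14, 3.35-fold higher, limma adjusted p = 7.72e-06). Both genes kept the groups far apart. The integrin chain Itga4 differed by 0.41 (limma adjusted p = 0.0176) and was not called without mo-KC replicate 1 (0.38) or replicate 3 (0.37). Sulf2, an enzyme that trims sulfate from heparan sulfate, belonged to no list and was higher by 1.06 (limma adjusted p = 6.53e-05). Fgfr1 was the only call, at -0.79 (limma adjusted p = 0.00602), among 29 growth factor receptors, and was not called without mo-KC replicate 1 (-0.77) or replicate 3 (-0.76).

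Genes of lipid mediators and lipid carriers gave 1 higher and 1 lower call among 30 eicosanoid genes and 1 lower call among 39 lipid genes. Ptgs2, the inducible cyclooxygenase, was 7.06, 6.92 and 7.10 in mo-KCs and 5.20 to 5.78 (median 5.52) in em-KCs, a difference of 1.56 (standard error 0.12, 2.94-fold higher, limma adjusted p = 3.77e-06). Hpgds, a prostaglandin D synthase, was lower, with -0.88 (limma adjusted p = 0.0448), a call lost on leaving out any mo-KC array (-0.96 to -0.83). Apoc1, an apolipoprotein, was 12.13, 12.17 and 12.09 in mo-KCs against 13.17 to 13.35 (median 13.22) in em-KCs, a difference of -1.10 (standard error 0.07, 2.14-fold lower, limma adjusted p = 2.42e-07), with arrays of each group close together. Apoe, another apolipoprotein, was 13.46, 13.52 and 13.51 in mo-KCs and 13.30 to 13.53 in em-KCs and was not called. Slc27a6, the gene of a fatty acid transporter, belonged to none of the lists. It was 5.17, 5.71 and 5.07 in mo-KCs against 7.33 to 8.16 (median 7.64) in em-KCs, a difference of -2.38 (limma adjusted p = 1.32e-06).

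Further genes with large changes also belonged to no list. Xlr, named for X-linked expression in lymphocytes, was 6.47, 6.21 and 6.57 in mo-KCs against 8.94 to 9.55 (median 9.23) in em-KCs (difference -2.81, limma adjusted p = 1.13e-08), and its measured neighbour 3830403N18Rik differed by -1.82. Probes of the Xlr family may be shared. The potassium channel gene Kcnj16 differed by -1.63, the RNA-binding Raver2 by -1.85 and Lratd1 by -1.83. On the higher side Adgrl3, an adhesion receptor, differed by 1.29, and Anpep, a surface aminopeptidase of myeloid cells, by 1.03. Anpep was not called without mo-KC replicate 1 (0.96). Slfn1 (1.17) was not called without replicate 1 (1.13) or replicate 3 (1.13), nor Zc3h12c (1.04) without replicate 1 (0.90) or replicate 2 (1.06). Sh2d1b1, an adaptor known from natural killer cells, rested on uneven arrays. It was 5.53, 3.89 and 6.49 in mo-KCs against 3.10 to 3.62 (median 3.40) in em-KCs (difference 1.92, limma adjusted p = 0.0123), and was not called without mo-KC replicate 1 (1.80) or replicate 3 (1.32).

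Cell cycle genes leaned upward with a single call. Of 39 measured members 37 lay above 0, with a median difference of 0.36 against -0.0040 over all genes. Mki67, a marker of dividing cells, was 7.93, 7.69 and 8.39 in mo-KCs and 7.17 to 7.60 (median 7.46) in em-KCs, a difference of 0.57 (limma adjusted p = 0.0396). Without mo-KC replicate 1 it was 0.61 (limma adjusted p = 0.118), and without replicate 3 0.38 (limma adjusted p = 0.203). The mean of the list was 7.30 to 7.96 on the mo-KC arrays and 7.07 to 7.41 on the em-KC arrays, so the groups overlapped. Of 27 immediate-early genes, which cells switch on within minutes of a stimulus, 26 lay above 0 (median 0.17), and limma called 0 of them, with 7 at an unadjusted p under 0.05. The methods' t-test with Benjamini-Hochberg adjustment called 0. The mean of this list was 9.03 to 9.34 on the mo-KC arrays and 8.57 to 9.26 on the em-KC arrays, so the groups overlapped here too. Dusp1, a phosphatase gene of this list, differed by 0.32 (limma adjusted p = 0.436).

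In the list of inflammatory cytokines 3 of 33 genes were called higher, against 0.391% of all genes, with a list median of 0.20. All 3 were already given above: Ptgs2, an enzyme gene of the eicosanoid list, and Ccl4 and Ccl3 of the chemokine list. Il1b differed by 0.42 (limma adjusted p = 0.229). Tlr9, the sensor of bacterial DNA, was 8.13, 8.04 and 8.13 in mo-KCs and 7.26 to 7.64 in em-KCs, a difference of 0.64 (limma adjusted p = 9.67e-04). It was the only call among 27 pattern receptors and nucleic acid sensors. Limma called 0 genes among 35 KC and mφ transcription factors (3 at an unadjusted p under 0.05), 34 interferon-stimulated genes (4), 8 Ifi200 genes (0), 41 lysosome genes (5) and 14 Fc receptor genes (1). With the methods' t-test and Benjamini-Hochberg adjustment the counts were 0, 0, 0, 1 and 0. Intervals within 1.5-fold were found for 30, 32, 5, 40 and 11 of these genes. Over the 23 lists, 38 of 628 measured genes (6.05%) were called, 21 higher and 17 lower, against 1.02% of all genes. The lists were chosen with earlier results of these data known, so the larger share is no evidence of enrichment.

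**Figure D4:**
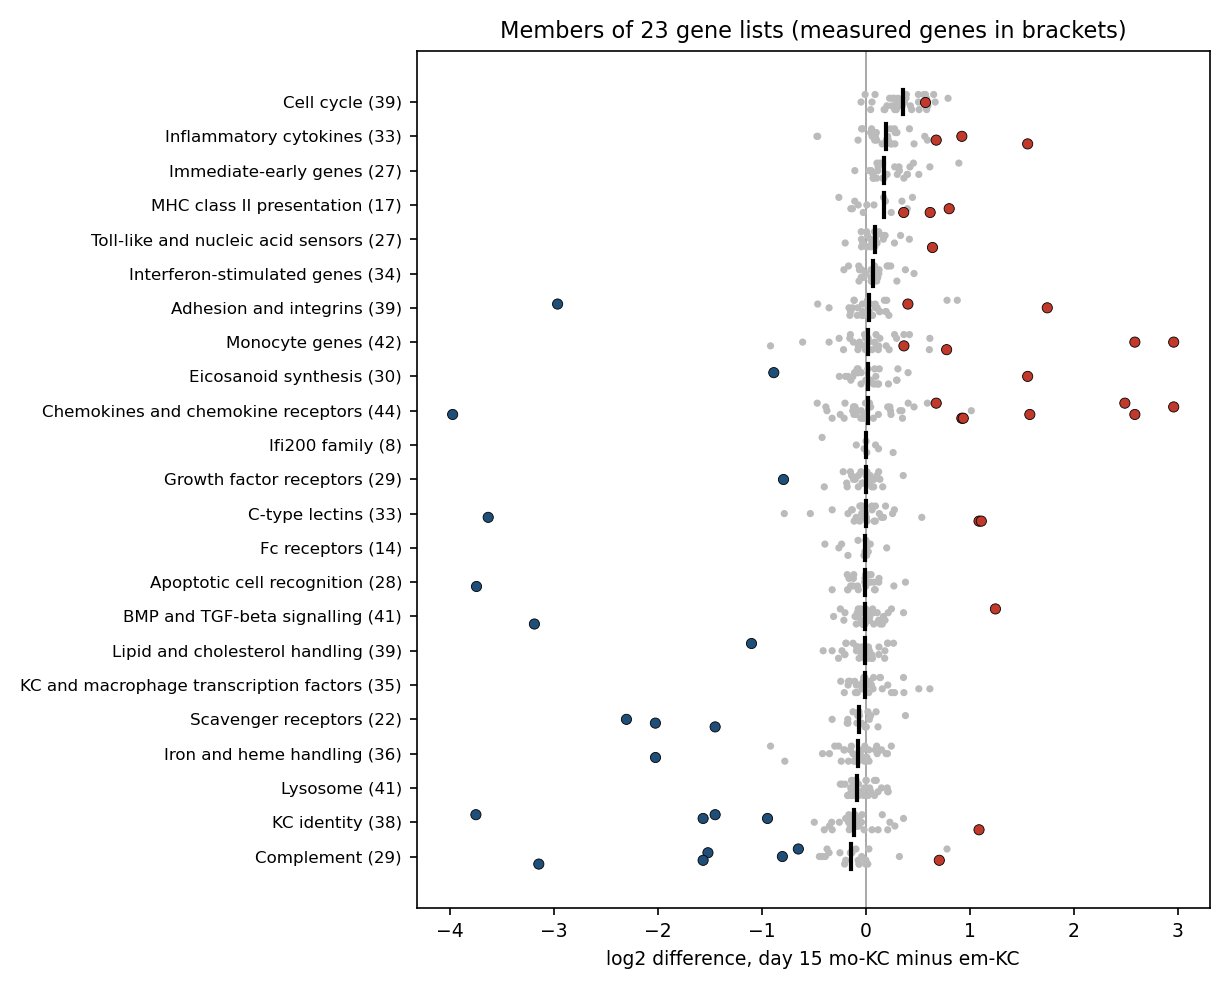
Log2 difference between mo-KCs and em-KCs (x) for the measured genes of 23 lists (y), with 1 point per gene, called genes in red (higher) or blue (lower), uncalled genes in grey, and a black bar at the list median. The medians lie between -0.14 (complement) and 0.36 (cell cycle), and most called genes stand away from the bulk of their list.

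Some markers of other cells moved with the groups. Of 6 measured monocyte markers Ccr2 and Ms4a4c were called higher, and the mean of the list was 7.08 to 7.10 on the mo-KC arrays and 6.24 to 6.49 on the em-KC arrays. The list median was 0.36 with 2 members below 0, and without Ccr2 and Ms4a4c, also left out after the values were seen, the means were 6.16 to 6.28 and 5.91 to 6.31. Of 31 measured hepatocyte markers, 24 lay below 0 with a median of -0.44, and 4 plasma protein genes were called lower: Ambp (-0.98), Kng1 (-0.90), Vtn (-0.79) and Apoh (-0.76). The mean of the list was 7.03 to 7.37 on the mo-KC arrays and 7.18 to 7.96 on the em-KC arrays, so the groups overlapped. Each of these 4 calls was lost without at least 1 mo-KC array, with differences of -1.09 to -0.81, -1.03 to -0.82, -0.84 to -0.75 and -0.85 to -0.66. With the mean of the hepatocyte markers as a covariate, limma called 112 genes, 99 of them among the 204. Timd4, C2, Cxcl13, Cd163, Ccr2, Cx3cr1 and Ccr3 stayed called in that fit, and Cd207 (1.01), Cfb (0.63), H2-Eb1 (0.85) and Mki67 (0.51) did not, with differences from that fit in parentheses.

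Cd22 (-0.82) was the only call among 9 B cell markers and Cd4 (-0.95) among 15 T and NK cell markers. Cd4 was not called without mo-KC replicate 1 (-0.81) or replicate 2 (-0.96). The means of the B cell list (6.19 to 6.58 in mo-KCs and 6.32 to 6.88 in em-KCs) and of the T and NK cell list (5.26 to 5.56 and 5.34 to 5.65) overlapped, as did those of sinusoidal endothelium (9.31 to 9.58 and 9.09 to 9.86) and neutrophils (5.35 to 5.62 and 5.29 to 5.61). The part of these markers in the differences above was not tested beyond the hepatocyte covariate. Sex-linked transcripts overlapped between the groups, with differences of -0.02 for Xist and 0.13 for Eif2s3y.

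The em-KC arrays came from 4 conditions, and mo-KCs were also set against each of them in a limma fit of 5 conditions. Limma called 111 genes (0.557%) against untreated KC-DTR mice, 36 (0.181%) against the untreated WT littermate, 71 (0.356%) against WT littermates 15 days after DT, and 80 (0.401%) against those 30 days after DT. These comparisons share the mo-KC arrays, and the single untreated WT littermate array is assumed to vary like the others. With the hepatocyte covariate the counts against untreated KC-DTR mice and WT littermates 15 and 30 days after DT were 67, 11 and 37. Leaving out 1 array brought them as low as 70 (untreated KC-DTR replicate 3), 32 (day 15 replicate 2, and 35 without replicate 1) and 33 (day 30 replicate 1). Without mo-KC replicate 1 they were 71, 40 and 53. In the fit with all 11 arrays, 29 genes were called against each condition. The 9 higher ones were Ccr1, Ccr2, Ccr3, Ccrl2, Cx3cr1, H1f5, Ptgs2, Sulf2 and Tspan32. The 20 lower ones were Apoc1, Bmpr1a, C2, C4b, C6, Cd163, Cd209f, Colec12, Cxcl13, Kcnj16, Klhl13, Lratd1, Pcolce2, Raver2, Sdc2, Slc27a6, St6galnac2, Stard13, Timd4 and Xlr.

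The differences from the single conditions are given in the order untreated KC-DTR mice, untreated WT littermate, and WT littermates 15 and 30 days after DT. Timd4 differed by -3.74, -3.80, -3.81 and -3.67, and C2 by -3.27, -3.21, -3.02 and -3.04. These values stayed close together. Cx3cr1 differed by 2.78, 2.89, 2.15 and 2.59, and Ccr3 by 2.68, 2.88, 1.67 and 2.84. For both receptors the smallest difference was that from WT littermates 15 days after DT, whose 2 arrays had Ccr3 values of 8.47 and 8.63. Cd209f differed by -3.72, -3.18, -4.75 and -2.61, a range of more than 2 log2 units.

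**Figure D5:**
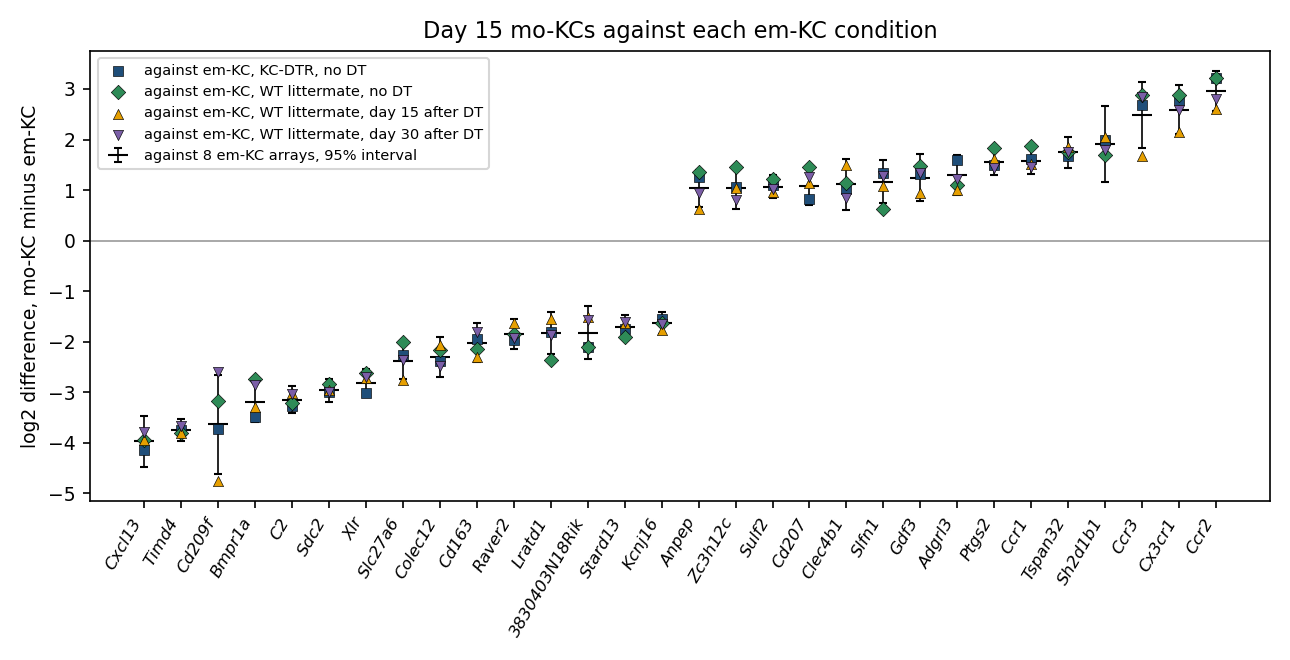
Log2 difference of mo-KCs for the 15 lower and 15 higher called genes with the largest differences, against each em-KC condition (coloured points) and against all 8 em-KC arrays (black, with the 95% confidence interval). All points keep the sign of their gene, which was fixed in advance because only genes without overlap between the groups were chosen. Those of Cd209f spread from -2.61 to -4.75.

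Within em-KCs, WT littermates 15 days after DT (2 arrays) were set against the mean of the untreated conditions, KC-DTR (3 arrays) and WT littermate (1 array), so that genotype and DT cannot be told apart here. Limma called 0 genes (0.00%), with 956 at an unadjusted p under 0.05 and a lowest adjusted p of 0.333 for Myct1. Without the second of the 2 treated arrays the count was 1. The difference between mo-KCs and untreated KC-DTR em-KCs was then tested against that between WT littermates 15 days after DT and without DT. In KC-DTR mice the cells sorted after DT were mo-KCs, so the first difference compares 2 cell populations. This test between genotypes therefore cannot tell a response to DT from the change of cells, and it rests on 1 untreated WT littermate array. Limma called 22 genes (0.110%), 4 higher and 18 lower, among them Sdc2 (-3.10, adjusted p = 4.57e-04), C2 (-3.08, adjusted p = 7.79e-04) and Ccr2 (2.60, adjusted p = 0.00438). With the hepatocyte covariate this count was 7, and of these 3 genes C2 (-3.34, adjusted p = 0.0482) was still called, while Sdc2 (-2.79, adjusted p = 0.0821) and Ccr2 (2.51, adjusted p = 0.428) were not called. This limma contrast was not called for Cx3cr1 (2.05, adjusted p = 0.206) and Ccr3 (1.46, adjusted p = 0.528).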

How the data were processed

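RNA of sorted KCs was hybridised to Affymetrix Mouse Gene 1.0 ST arrays. The values are log2 expression per probeset, which the authors deposited after Robust Multi-array Average (background correction, quantile normalization between arrays and probeset summary). The sources used here give no versions for these steps. Array medians over the 11 arrays were 5.72 to 5.81, and no 2 arrays held identical values.

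Of 35556 probesets, 21789 had 1 gene symbol in the platform annotation, 1621 had several and 12146 had none. Probesets with 1 symbol were used, and for 999 genes with more than 1 the probeset with the highest mean over the 19 arrays stood for the gene, giving 19938 genes. No filter on low values was applied. The 3 mo-KC and 8 em-KC arrays were compared with limma 3.58.1 in R 4.3.3 (lmFit and eBayes, Benjamini-Hochberg over all genes, threshold 0.05). A second limma fit held 5 conditions. The arrays were also compared on principal components with an exact permutation test. Groups came from the sample labels, and sex and hybridisation batch are not given per sample there. The methods' t-test, other em-KC groupings, filters, normalizations, a replicate block, array weights, a hepatocyte covariate and the leaving out of each array were tried as alternatives.

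The members and the 23 gene lists and 13 marker lists were chosen with earlier results of these data known. Named genes were the 15 higher and 15 lower called genes with the largest differences and no overlap between groups, up to 4 called members and the uncalled member with the highest mean of each list, the 5 higher and 5 lower called genes with the highest level, genes the study names, called markers, and up to 5 genes of the other contrasts. Further list members given for context, neighbouring genes and promoters were chosen after values were seen. In simulated data for this comparison with 200 changed genes of 19938, 76.1%, 97.0% and 100% of those changed 1.5-, 2- and 4-fold were recovered, with 8 false calls. The simulated noise was independent between genes and arrays, without differences between em-KC conditions, so these figures need not hold for the measured arrays.

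Promoters came from RefSeq (GRCm38.p6). The motifs counted on both strands were PU.1 (GAGGAA), AP-1 (TGANTCA), C/EBP (TTGCNNAA), NF-kB, the E-box of MITF and TFE factors (CACGTG), the CACCC box (CCACACCC), the ISRE, the MAF half-site (TGCTGA), the nuclear receptor half-site (AGGTCA) and a SMAD palindrome (GTCTAGAC). All promoters of the table held them in 23.1%, 6.87%, 9.55%, 17.3%, 6.05%, 3.19%, 3.04%, 15.8%, 13.8% and 0.174%, and matches of different motifs may overlap.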

Additional observations from a re-analysis of the deposited data

Results flagged for a closer look

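The difference between mo-KCs and em-KCs of untreated KC-DTR mice was set against that between WT littermates 15 days after DT and without DT. The 5 genes with the largest values past the threshold in limma are given. Their values include the difference between mo-KCs and em-KCs and are not a separate effect of DT. The value was -5.28 for Cd209f (adjusted p = 0.00283), -4.13 for Cxcl13 (adjusted p = 0.0128), -4.11 for Spam1 (adjusted p = 0.00859), -4.03 for Bmpr1a (adjusted p = 1.40e-04) and -3.75 for Timd4 (adjusted p = 9.44e-05). Each rests on 1 untreated WT littermate array. Without WT littermate day 15 replicate 1 the values of Cxcl13 (-4.17) and Spam1 (-4.02) were no longer past the threshold, and Cxcl13 (-4.10) was not without replicate 2. With the trend and robust options of eBayes Cxcl13 kept its value and had an adjusted p of 0.0950 in limma. Spam1, a hyaluronidase gene in a cluster of near copies, was 4.64 on that array, 5.87 to 6.47 on the 4 arrays of WT littermates after DT and 6.36 to 7.40 in untreated KC-DTR mice. Its difference between mo-KCs and all em-KC arrays was not called (-1.74, limma adjusted p = 0.0714), but it was called in 7 of 33 alternative settings, and in the limma fit of 5 conditions against untreated KC-DTR mice (-2.37, adjusted p = 0.00174) and WT littermates 15 days after DT (-1.84, adjusted p = 0.0341). Against the untreated WT littermate array it was -0.11 (limma adjusted p = 1.00). No array stood apart from its group by the gap test among the 85 genes named by rule. Such a test can find little with so few arrays. It does not show that these values are free of a single outlying array, since the 4.64 of Spam1 lay below all other em-KC arrays.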

How the results depend on the processing

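Over 33 alternative settings, 0 of the 57 called genes named by rule changed sign, and 24 of them (6 higher, 18 lower) stayed past the threshold in every setting that tested them. The other 33 fell below it in at least 1. For these called genes no mo-KC array overlapped the em-KC arrays, so leaving out arrays or em-KC conditions could not turn a sign. Settings that change only the test or the threshold keep the difference as it is. The unchanged signs are therefore little evidence of robustness. Of the named genes not called, 9 were called in at least 1 setting: Spam1 in 7, Clec4f in 3, Hpgd in 2, and Cd5l, Cd81, Dusp1, Id3, Il1b and Vsig4 only with the t-test unadjusted. The count of 204 genes was 83 against untreated KC-DTR mice alone, 43 against WT littermates 15 days after DT alone, 104 with the 3 other WT arrays added, 135 with 19 arrays in the fit, 87 with the methods' t-test after Benjamini-Hochberg, 1643 with it unadjusted, 112 with the hepatocyte covariate and 113 at a threshold of 0.01. Leaving out 1 array gave 117 (without mo-KC replicate 1) to 205, and 123 without mo-KC replicate 3. At 1.5-fold or more, 149 genes became 83, 43 and 89 under the first 3 of these settings and 72 with the t-test after Benjamini-Hochberg. The 38 called list members became 23 against untreated KC-DTR mice alone, 21 against WT littermates 15 days after DT alone, 24 and 140 with the t-test adjusted and unadjusted, and 23 (without mo-KC replicate 3) to 39 on leaving out 1 array. The share of genes with an interval within the limit was 61.4% at a ratio of 5 to 4 and 98.8% at 2-fold. These changes had causes that were not tested, apart from the fewer arrays or the stricter limit where the setting itself brings them.

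In the fit of 5 conditions, the hepatocyte covariate gave 67 genes against untreated KC-DTR mice, 11 and 37 against WT littermates 15 and 30 days after DT, and 7 for the test between genotypes. At a threshold of 0.01 the counts were 50, 32, 37 and 10, and 19 against the untreated WT littermate. Leaving out 1 array gave 70 (without untreated KC-DTR replicate 3, and 71 without mo-KC replicate 1) to 111 against untreated KC-DTR mice. It gave 32 to 71 against WT littermates 15 days after DT, with 40 without mo-KC replicate 1 and 35 and 32 without either treated array. It gave 33 (without WT littermate day 30 replicate 1, and 53 without mo-KC replicate 1) to 91 against those 30 days after DT. The test of treated WT littermates against untreated em-KCs gave 0 to 1 (without the second treated array), and the test between genotypes 11 (without the first treated WT littermate array) to 23.

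Samples of mo-KCs and untreated KC-DTR mice that share a replicate number had correlated deviations of 0.0013, 0.152 and 0.137, so not every pair passed 0.1. The crossed pairs of replicates 2 and 3 had -0.129 (mo-KC 2 with em-KC 3) and -0.159 (mo-KC 3 with em-KC 2). Whether same-numbered samples share more than a number was not tested. The first mo-KC array correlated best with the second em-KC array (0.0041), and the other two with their own number. With the replicate block the count was 191 over 11 arrays and 91 over the 3 pairs, all 91 at 1.5-fold or more.

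Signs turned only for named genes that were not called, and for the called ones many settings could not turn a sign. Against untreated KC-DTR mice alone, with and without the block, these were Calr (-0.0243), Ctss (-0.0317), Spi1 (0.14), Pcna (-0.0816) and Fcer1g (-0.0441). Ccl6 (0.0212) turned against WT littermates after DT alone, and Lyz2 (-0.0125) and Apoe (-0.0251) against those at 15 days alone. With the 3 other WT arrays Calr (-0.0472), Ifi203 (0.0166) and Fcer1g (-0.0464) turned, with repeated quantile normalization C1qc (0.0090), and with the block over 11 arrays Calr (-0.0060) and Fcer1g (-0.0007). With the hepatocyte covariate these were Calr (-0.0212), Ctss (-0.0075), Spi1 (0.0530) and Fcer1g (-0.0143). On leaving out 1 array Calr ran from -0.0048 to 0.0193, Spi1 from -0.0762 to 0.0555, Lyz2 from -0.0068 to 0.0864, Ctss from -0.0015 to 0.0206 and Fcer1g from -0.0088 to 0.0245. Precision is limited by the number of arrays, and no detection calls were used here, so low values lie over an unknown background.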
